A study of Mus musculus with 6 samples.

Results

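The clock output factors described here are 9 transcription factor genes that read out the circadian clock, chosen by name: the REV-ERB receptors *Nr1d1* and *Nr1d2*, the ROR receptor *Rora*, the PAR-bZIP factors *Dbp*, *Tef* and *Hlf*, their relative *Nfil3*, and the DEC factors *Bhlhe40* and *Bhlhe41*. All 9 were among the 24532 genes of the deposited table and all 9 were among the 13801 genes that passed edgeR's filter on low counts. They were measured by RNA-seq in gastrocnemius (GAS) muscle of male C57BL/6 mice of about 20 weeks, with 3 libraries labelled WT (*Sirt6* flox/flox) and 3 labelled *Sirt6* KO, the KO-labelled libraries (Myl1-Cre with *Sirt6* flox/flox), so that both groups carried the floxed allele. Cre was expressed from the *Myl1* gene, whose activity is mainly in fast, type II myofibers, and other cells of the muscle keep an intact gene. The time of day at which the muscles were collected is not given in the sources used here.

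In the molecular clock, the activators CLOCK and BMAL1 bind E-box elements and drive the genes of their own repressors, the PER and CRY proteins. The REV-ERB receptors repress, and the ROR receptors activate, genes with a ROR response element, among them the gene of BMAL1. The PAR-bZIP proteins activate genes with a D-box, at which NFIL3 acts as a repressor, and the DEC proteins compete with CLOCK and BMAL1 at E-boxes. In skeletal muscle these outputs carry the time of day to metabolic genes.

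The libraries held between 44845763 and 63016899 counts on genes. *Sirt6* itself stood at 2.77, 2.23 and 2.88 CPM (read counts relative to the TMM-scaled library total) in WT libraries 1, 2 and 3 and at 7.81, 7.44 and 6.68 in KO-labelled libraries 1, 2 and 3. The deleted gene thus went against the labels, counts per gene do not separate deleted from remaining exons, and each direction below rests on the labels. The fast muscle markers *Myh4*, *Acta1*, *Ckm*, *Mylpf* and *Tnnt3* were abundant in every library, at a summed 115000 to 191000 CPM in WT and 180000 to 206000 in the KO-labelled libraries. The 6 slow fiber markers split the libraries across the labels: their mean log2 level, centred on the 6 libraries, was 2.24, 1.97 and 1.53 in WT libraries 1 and 2 and KO-labelled library 2, against -3.37, -1.56 and -0.81 in WT library 3 and KO-labelled libraries 1 and 3. In such bulk samples, fewer cells of a type and less RNA per cell cannot be told apart. Of the erythroid, adipocyte, macrophage, fibroblast and endothelial markers (5 each) and the slow and fast fiber markers, 0 passed edgeR's test.

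*Nfil3*, *Nr1d2* and *Rora* fell in the KO-labelled libraries, and no member rose past the test. By edgeR's quasi-likelihood test, which also gives the standard errors (SE) below, 3 of the 9 genes had an adjusted p under 0.05 in the downward direction, against 8.39% of all genes tested. In the upward direction 0 of the 9 passed, against 7.85% of all genes, and the same 3 were the only members with an unadjusted p under 0.05. DESeq2 called 1 of the 9, *Nr1d1*, higher, at an adjusted p of 0.0478. The log2 fold changes of the 9 ran from -1.85 to 1.02 with a median of -0.26, where the median of all genes tested was -0.021. The 3 libraries of each group lay apart in the downward direction for the same 3 members, which 19.6% of all genes did. In the upward direction 0 of the 9 did so, against 20.3% of all genes (40.0% in either direction), and the groups overlapped for the other 6 members.

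**Figure D1:**
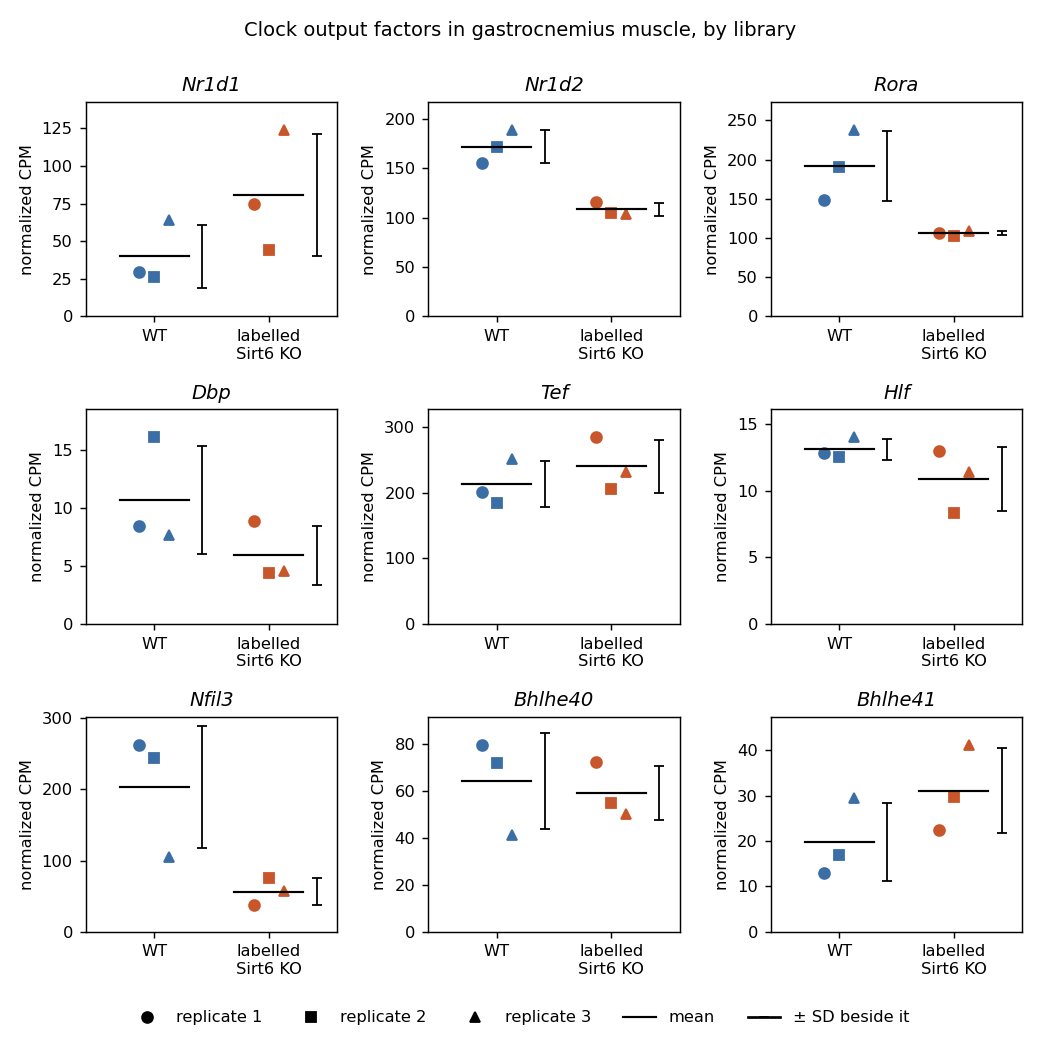
Level of each of the 9 genes in every library (y axis, TMM-normalized CPM from 0; circles, squares and triangles for replicates 1, 2 and 3; horizontal line, mean; bar beside it, SD, n = 3). *Nr1d2*, *Rora* and *Nfil3* are lower in every KO-labelled library than in every WT library, while the groups of the other 6 genes overlap.

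The REV-ERB receptors are haem-binding nuclear receptors that lack an activation function and recruit corepressors. *Nr1d2* (REV-ERB beta, NCBI gene 353187, GRCm38 chromosome 14, bases 18204056 to 18239106) was at 155, 172 and 189 CPM in WT libraries 1, 2 and 3 and at 116, 105 and 104 in the KO-labelled libraries. Every KO-labelled library was below every WT library. The mean fell from 172 ± 16.7 to 108 ± 6.55 (mean ± SD, n = 3), with a log2 fold change of -0.67 (SE 0.12, adjusted p = 0.017, edgeR). Across the 2 groups it was the steadiest of the 9 genes, with a within-group SD of 0.12 on the log2 scale, below that of most genes tested. Its log2 fold change was -0.40 (adjusted p = 0.0775, edgeR) once the trend of the counts over GC content was removed, and it passed the test in 2 of the 6 fits that left out 1 library.

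*Nr1d1* (REV-ERB alpha, NCBI gene 217166, chromosome 11, 98767932 to 98775377) had the opposite sign, at 29.8, 26.0 and 63.8 CPM in WT and 74.5, 44.0 and 124 in the KO-labelled libraries. WT library 3 was above KO-labelled library 2, so the groups overlapped, and the 3 lowest values came from the 3 libraries with high slow fiber markers. The mean was 39.9 ± 20.8 in WT and 80.8 ± 40.4 in the KO-labelled libraries (SD, n = 3 each), with a log2 fold change of 1.02 (SE 0.45, adjusted p = 0.151, edgeR). With the slow fiber score as a covariate it was 0.94 (adjusted p = 0.0395, edgeR), and without WT library 3 it was 1.54 (adjusted p = 0.0354, edgeR). It was 0.57 (adjusted p = 0.436, edgeR) without KO-labelled library 3 and 0.80 (adjusted p = 0.278) with the GC trend removed, and 4 of the 16 alternatives called it. The within-group spread of *Nr1d1* was larger than that of 91.9% of the genes tested. *Nr1d1* shares 263 annotated exonic bases (8.55% of its own) with *Thra*, the thyroid hormone receptor alpha gene on the other strand, and *Thra* had a log2 fold change of 0.35 (adjusted p = 0.143, edgeR). The sources used here do not say whether strand was used in counting.

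*Rora* encodes the ROR alpha receptor, which binds the same element as the REV-ERB receptors and activates from it (NCBI gene 19883, chromosome 9, 68653404 to 69388246). It was at 148, 190 and 238 CPM in WT libraries 1, 2 and 3 and at 107, 103 and 109 in the KO-labelled libraries. The latter 3 lay within a narrow band below all WT values, with a log2 SD of 0.04 against 0.34 in WT. *Rora* fell from 192 ± 44.9 to 106 ± 2.91 CPM (mean ± SD, n = 3), with a log2 fold change of -0.85 (SE 0.18, adjusted p = 0.0231, edgeR). With the GC trend removed it was -0.55 (adjusted p = 0.0871, edgeR). *Rora* and *Nr1d2* had the lowest GC content of the 9 genes, 40.9% and 41.8% in their longest transcripts. *Rorb*, of the same receptor family, had between 3 and 13 counts per library and was not tested.

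*Nfil3* (also called E4BP4, NCBI gene 18030, chromosome 13, 52967209 to 52982878), the repressor that shares the D-box with the PAR-bZIP factors, had the largest change of the 9. It was at 262, 244 and 105 CPM in WT libraries 1, 2 and 3 and at 37.0, 75.8 and 56.8 in the KO-labelled libraries. WT library 3 was the closest to the other group but remained above all of its libraries. *Nfil3* fell from 204 ± 85.6 to 56.5 ± 19.4 CPM (SD, n = 3 each), which is 3.60-fold lower (log2 fold change -1.85, SE 0.39, adjusted p = 0.0242, edgeR). Unlike the decreases of *Nr1d2* and *Rora*, it stayed past the threshold with the GC trend removed, at -2.03 (adjusted p = 0.0351, edgeR), and over all 16 alternatives its adjusted p ran from 6.32e-06, with DESeq2, to 0.0987. The fold change lay between -2.16 and -1.62 when any 1 library was left out, and it passed the test in 2 of these 6 fits.

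For the 3 genes that fell and for *Nr1d1*, which had the opposite sign, the 250 bases before a RefSeq start on GRCm38.p6 are shown. Capitals mark the motif matches found.

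Nr1d2 (chr14:18239107-18239356, minus strand): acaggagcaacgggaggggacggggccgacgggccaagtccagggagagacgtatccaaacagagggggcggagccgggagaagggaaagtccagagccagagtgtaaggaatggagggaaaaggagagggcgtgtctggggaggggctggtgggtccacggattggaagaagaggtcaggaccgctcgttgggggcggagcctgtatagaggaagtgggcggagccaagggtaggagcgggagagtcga
Rora (chr9:68653536-68653785, plus strand): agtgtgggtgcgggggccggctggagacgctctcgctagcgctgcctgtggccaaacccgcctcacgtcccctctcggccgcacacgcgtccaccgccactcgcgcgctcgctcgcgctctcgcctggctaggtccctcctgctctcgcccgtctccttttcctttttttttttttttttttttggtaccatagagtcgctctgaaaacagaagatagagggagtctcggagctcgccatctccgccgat
Nfil3 (chr13:52981040-52981289, minus strand): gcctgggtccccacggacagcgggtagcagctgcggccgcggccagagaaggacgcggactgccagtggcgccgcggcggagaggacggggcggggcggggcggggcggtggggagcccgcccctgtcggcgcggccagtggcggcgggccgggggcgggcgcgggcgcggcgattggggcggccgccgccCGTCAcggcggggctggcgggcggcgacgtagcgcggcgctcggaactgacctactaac
Nr1d1 (chr11:98775378-98775627, minus strand): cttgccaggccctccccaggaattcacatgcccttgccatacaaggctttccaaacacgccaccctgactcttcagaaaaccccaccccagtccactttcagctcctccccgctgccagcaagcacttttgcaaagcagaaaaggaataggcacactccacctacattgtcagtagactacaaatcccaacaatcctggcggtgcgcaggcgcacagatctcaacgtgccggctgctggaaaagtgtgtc

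RefSeq windows were matched for 8 of the 9 genes, in 9 windows because *Tef* has windows at 2 starts, and *Bhlhe40* was not among them. For *Rora*, *Nfil3* and *Dbp* the start used lies inside the gene's span, and any start further upstream was not searched. Both strands of the 250 bases were searched for the E-box CACGTG, the D-box TTANGTAA, the ROR response element (RORE), the cAMP response element (CRE) TGACGTCA and its half-site TGACG, which is part of the full CRE. The windows of *Nr1d2*, *Rora* and *Nr1d1* held none of the 5 motifs. That of *Nfil3* held a CRE half-site on the other strand, 59 to 55 bases before the start, a motif present in 17.8% of the 32851 RefSeq windows. The D-box and the ROR element, present in 2.06% and 2.04% of all windows, matched 0 of the 9 windows. Such matches are descriptions of these letters and say nothing on binding.

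The PAR-bZIP factors are activators whose levels follow the clock in most tissues. *Dbp* (NCBI gene 13170, chromosome 7, 45705100 to 45710203), a direct CLOCK and BMAL1 target, was at 8.44, 16.1 and 7.66 CPM in WT and at 8.89, 4.39 and 4.59 in the KO-labelled libraries. Library 1 of the latter lay above WT libraries 1 and 3, so the groups overlapped. Its mean was 10.7 ± 4.64 in WT and 5.96 ± 2.54 in the KO-labelled libraries (mean ± SD, n = 3), with a log2 fold change of -0.85 (SE 0.38, adjusted p = 0.153, edgeR). The estimate equals that of *Rora* but has a larger standard error, and it ran from -1.25 to -0.43 as single libraries were left out. *Dbp* shares 539 annotated exonic bases (18.0% of its own) with *Sphk2*, a sphingosine kinase gene on the other strand, which had a log2 fold change of 0.45 (adjusted p = 0.0506, edgeR).

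*Tef* (NCBI gene 21685, chromosome 15, 81802673 to 81826863), the most abundant of the PAR-bZIP genes, was at 201, 185 and 252 CPM in WT and at 284, 205 and 231 in the KO-labelled libraries. The 2 ranges interleaved, and the log2 fold change was 0.17 (SE 0.17, adjusted p = 0.507, edgeR). *Hlf* (NCBI gene 217082, chromosome 11, 90336535 to 90390917) was at 12.8, 12.5 and 14.0 CPM in WT and at 13.0, 8.30 and 11.4 in the KO-labelled libraries. It differed by less than the spread of the latter group, with a log2 fold change of -0.26 (SE 0.18, adjusted p = 0.319, edgeR).

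The E-box, through which CLOCK and BMAL1 act, was present in 6.02% of all windows and in 3 of the 9 member windows, both starts of *Tef* and that of *Bhlhe41*. The full CRE was present in 1.55% of all windows and in that of *Hlf* alone among the members. None of these 3 genes passed the test. The stretches around the matches are shown on GRCm38.p6, with the motifs in capitals.

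Tef, upstream start (chr15:81802526-81802573, plus strand): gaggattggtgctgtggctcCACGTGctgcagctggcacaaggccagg
Tef, downstream start (chr15:81811256-81811303, plus strand): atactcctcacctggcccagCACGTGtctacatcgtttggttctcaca
Bhlhe41 (chr6:145865546-145865593, minus strand): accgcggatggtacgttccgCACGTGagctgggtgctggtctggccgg
Hlf (chr11:90390918-90390946, minus strand): tcggcgcgcggtgcgggcccTGACGTCAc

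The DEC factors are basic helix-loop-helix repressors that bind E-boxes. *Bhlhe40* (DEC1, NCBI gene 20893, chromosome 6, 108660629 to 108666925) was at 79.6, 72.2 and 41.1 CPM in WT and at 72.3, 55.0 and 50.3 in the KO-labelled libraries. The groups overlapped throughout, with a log2 fold change of -0.12 (SE 0.26, adjusted p = 0.767, edgeR) whose sign turned under 2 of the 16 alternatives. *Bhlhe41* (DEC2, NCBI gene 79362, chromosome 6, 145858243 to 145865420) was at 12.9, 17 and 29.4 CPM in WT and at 22.5, 29.7 and 41.1 in the KO-labelled libraries. WT library 3 lay between the latter values, and the log2 fold change was 0.65 (SE 0.33, adjusted p = 0.204, edgeR). Over the fits without 1 library it ran from 0.40 (adjusted p = 0.505, without KO-labelled library 3) to 1.06 (adjusted p = 0.0301, without WT library 3), and 2 of the 16 alternatives called it.

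Levels of different genes were compared as the deposited TPM values, which are scaled to transcript length. In WT, *Nfil3* was highest at 231 ± 114 TPM, followed by *Tef* at 109 ± 9.03, *Nr1d2* at 80.9 ± 2.61, *Bhlhe40* at 46.4 ± 18.7, *Rora* at 39.6 ± 4.33, *Nr1d1* at 30.6 ± 12.3, *Dbp* at 14.2 ± 6.64, *Bhlhe41* at 6.99 ± 2.24 and *Hlf* at 5.05 ± 0.342 (SD, n = 3 each). Only *Tef* and *Nr1d2*, and *Nr1d2* and *Bhlhe40*, were neighbours in this order whose ranges over the WT libraries lay apart, while the ranges of all other neighbours overlapped. In the KO-labelled libraries the order was headed by *Tef* at 115 ± 22.8 TPM, with *Nr1d1* at 59.0 ± 28.7, *Nfil3* at 57.1 ± 18.4, *Nr1d2* at 47.3 ± 4.38 and *Bhlhe40* at 38.6 ± 8.87 next. The range of *Tef* was apart from that of *Nr1d1*, while each neighbouring pair from *Nr1d1* down to *Bhlhe40* overlapped. *Rora*, at 20.7 ± 1.01 TPM, lay apart from both its neighbours, *Bhlhe40* above and *Bhlhe41* at 10.4 ± 2.92 below. *Dbp* at 7.24 ± 3.33 overlapped *Bhlhe41* and lay apart from *Hlf*, the lowest at 3.90 ± 0.955.

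**Figure D2:**
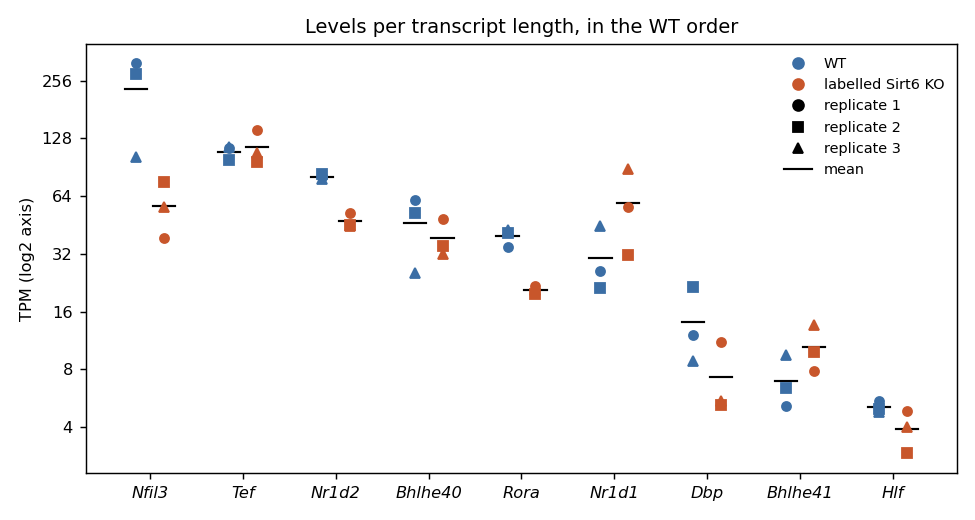
Level of the 9 genes per transcript length (y axis, deposited TPM on a log2 axis), ordered by the WT mean, with WT libraries in blue and the KO-labelled ones in orange (marker shape, replicate; line, mean). *Nfil3* leads in WT at a mean of 231 TPM and *Tef* in the KO-labelled libraries at 115.

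Ratios of members within a library need no scaling between libraries and set factors with opposed or shared roles against each other. A trend over GC content does not cancel in them, and they were not computed with that trend removed. The GC content was 56.8% for *Nr1d1*, 40.9% for *Rora* and 41.8% for *Nr1d2*. With the trend removed, the edgeR log2 fold changes of these 3 genes were 0.80, -0.55 and -0.40, each nearer to 0 than in the reported fit. The ratio of *Nr1d1* to *Nr1d2* was 0.322, 0.254 and 0.567 in WT libraries 1, 2 and 3 and 1.08, 0.705 and 1.99 in the KO-labelled libraries. It was thus higher in every KO-labelled library than in every WT library, 3.20-fold in the geometric mean. The group SDs were 0.60 and 0.75 on the log2 scale, and WT library 3 was nearest to the KO-labelled values. The ratio of *Nr1d1* to *Rora* was 0.748, 0.515 and 1.04 against 1.61 to 4.29, also without overlap, and 3.55-fold higher. By contrast, *Nr1d2* and *Rora*, which fell side by side, kept a ratio between 1.83 and 2.41 in all 6 libraries, a difference of 0.15 on the log2 scale with group SDs of 0.17 and 0.08.

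At the D-box, the ratio of *Tef* to *Nfil3* was 0.362, 0.358 and 1.12 in WT libraries 1, 2 and 3 and 3.62, 1.28 and 1.91 in the KO-labelled libraries. It was 3.93-fold higher in the latter, without overlap, and WT library 3 was close to the lowest of them. The ratio of *Hlf* to *Nfil3* (2.85-fold) and that of *Dbp* to *Nfil3* (1.94-fold) were higher in the geometric mean with overlap between the groups. Those of *Bhlhe40* to *Bhlhe41*, *Dbp* to *Tef* and *Dbp* to *Hlf* overlapped too, at log2 differences of -0.78, -1.02 and -0.56. With 3 libraries against 3, the two-sided exact permutation test cannot go below p = 0.1, which the 3 ratios without overlap reached, at 0.3 after Benjamini-Hochberg adjustment over the 9 ratios.

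**Figure D3:**
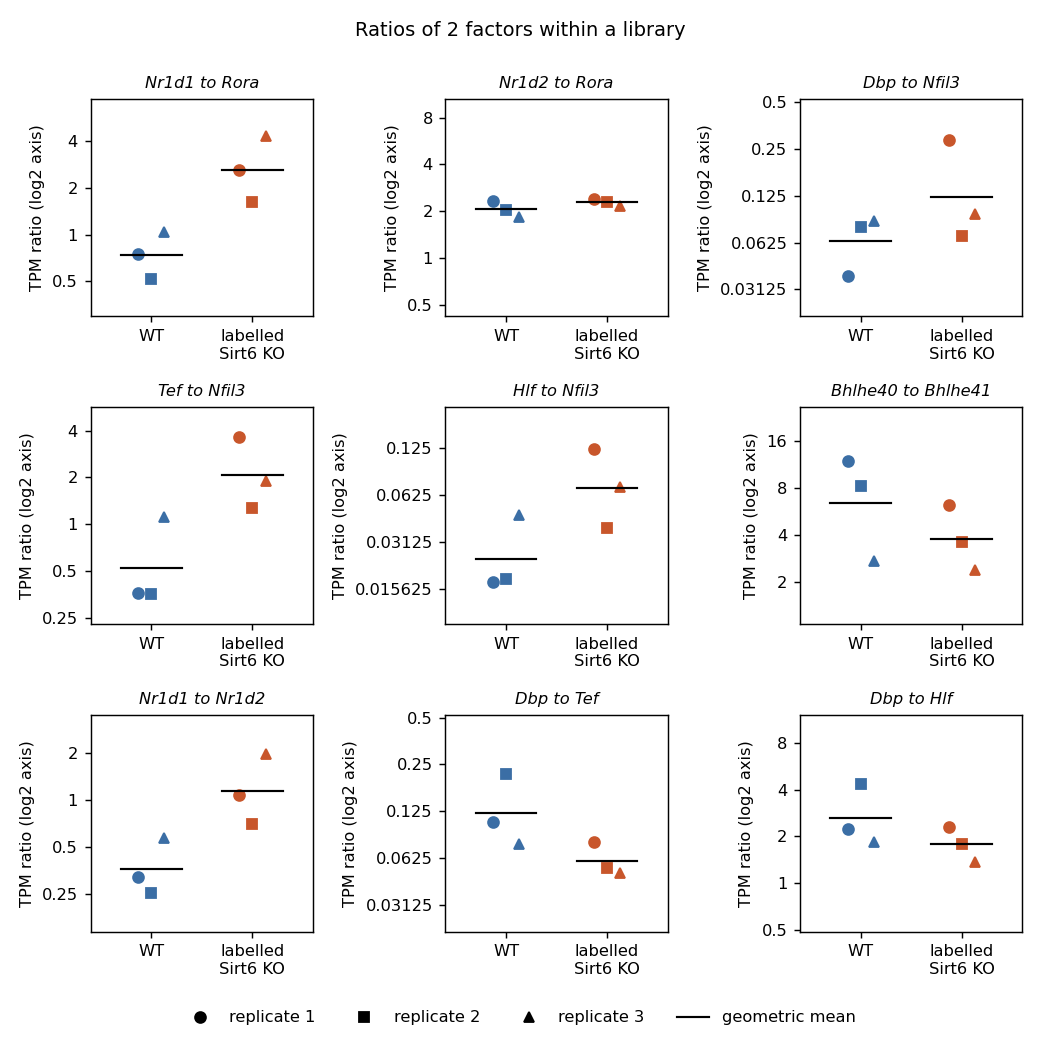
TPM ratio of 2 members within each library (y axis, log2 axis of equal span in all panels; marker shape, replicate; line, geometric mean). The ratios of *Nr1d1* to *Rora*, *Nr1d1* to *Nr1d2* and *Tef* to *Nfil3* are higher in every KO-labelled library than in every WT library, and that of *Nr1d2* to *Rora* stays between 1.83 and 2.41.

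Within a group, the spread between libraries differed widely among the 9 genes. Over all genes tested, the median within-group SD of the log2 level was 0.23. *Nr1d1* (0.72), *Nfil3* (0.63), *Dbp* (0.57), *Bhlhe41* (0.53) and *Bhlhe40* (0.41) were above it, *Rora* (0.24), *Hlf* (0.24) and *Tef* (0.23) were close to it and *Nr1d2* (0.12) was below it. WT library 3 stood apart from WT libraries 1 and 2 for several of them, with higher *Nr1d1* and *Bhlhe41* and lower *Nfil3* and *Bhlhe40*. It is also the library with the lowest slow fiber markers. With the slow fiber score as a covariate, the edgeR standard errors of *Nr1d1*, *Bhlhe41*, *Nfil3* and *Bhlhe40* were 0.27, 0.26, 0.12 and 0.21. In the reported fit they were 0.45, 0.33, 0.39 and 0.26. The score itself was not tested, and neither was its part in these differences.

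The patterns over the 6 libraries were compared by the root mean square difference of log2 levels, each centred on its own mean. Among the members, *Nr1d2* and *Rora* were each other's nearest, at 0.15. Of the genes with a range of at least 1 log2 unit, 38 lay nearer to *Nr1d2* and 23 nearer to *Rora* than that. *Nr1d1* and *Bhlhe41* were likewise each other's nearest members, at 0.44, with 187 and 592 such genes nearer. Among the genes with a range of at least 1 log2 unit, the nearest to *Nfil3* were *Rhou*, a small GTPase gene, and *Clic4*, a chloride intracellular channel gene, at 0.170 and 0.171, and the nearest to *Rora* were *Cep83* and *Hacd1* at 0.069 and 0.095. Those nearest to *Nr1d2* were *Gtf2a2* and *Fam72a* (0.058 and 0.071), to *Nr1d1* *Ccl25* and *Il12a* (0.174 and 0.189), to *Dbp* *Il2rg* and *Gimap4* (0.198 and 0.199), and to *Bhlhe41* *Eno1b* and *Tfcp2l1* (0.132 and 0.134). For *Tef* they were *Ammecr1* and *Vmn2r57* (0.160 and 0.175), for *Hlf* *Ssc4d* and *Syp* (0.125 and 0.135), and for *Bhlhe40* *Kcnip3* and *Srgap1* (0.106 and 0.111). The ranges of *Nr1d2* (0.85), *Tef* (0.62), *Hlf* (0.75) and *Bhlhe40* (0.95) were themselves below 1 log2 unit. Other genes of so small a range, which may be more like them, were not compared. With 6 libraries and 5459 or 5460 genes to choose from, such likeness is a description only.

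Of the 9 core clock genes, 2 fell (*Per2* and *Ciart*), 0 rose and 7 did not pass the test, with a median log2 fold change of -0.22. Over all genes tested, 8.39% fell and 7.85% rose. *Per2*, a period gene that represses CLOCK and BMAL1, was at 36.0, 34.4 and 18.5 CPM in WT and between 9.24 and 12.3 in the KO-labelled libraries (log2 fold change -1.49, SE 0.26, adjusted p = 0.0166, edgeR). *Ciart*, a further repressor of that pair, was at 4.37, 8.17 and 2.22 CPM against 1.98, 1.09 and 1.40 (-1.72, SE 0.48, adjusted p = 0.049). Both were below every WT library in every KO-labelled library, as were 19.6% of all genes, and each passed the test in 1 of the 6 fits that left out 1 library. *Arntl*, the gene of BMAL1 and a target of the REV-ERB and ROR receptors, was at 49.4 ± 6.96 CPM in WT and 47.1 ± 9.91 in the KO-labelled libraries (SD, n = 3 each, log2 fold change -0.07, SE 0.18, adjusted p = 0.815, edgeR). *Clock* (-0.22, adjusted p = 0.307) and the cryptochrome gene *Cry1* (-0.22, adjusted p = 0.468), both also known targets of these receptors, had standard errors of 0.15 and 0.21 and overlapping groups.

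Among 8 genes known to follow the clock in many tissues, 4 fell, 0 rose and 4 did not pass, against 8.39% lower and 7.85% higher over all genes tested, with a median log2 fold change of -1.0 where that of all genes was -0.021. *Noct*, which encodes the clock-regulated phosphatase nocturnin, fell from 117 ± 14.0 to 34.3 ± 11.6 CPM (± SD over 3 libraries, with a log2 fold change of -1.77, SE 0.25, adjusted p = 0.0132, edgeR). *Usp2*, a ubiquitin-specific protease gene, fell from 265 ± 73.3 to 98.3 ± 12.3 CPM (-1.43, SE 0.22, adjusted p = 0.0138, edgeR). *Pdxk*, which encodes pyridoxal kinase and is a known PAR-bZIP target, was at 64.5, 131 and 18.8 CPM in WT and at 8.78, 14.2 and 11.4 in the KO-labelled libraries (-2.63, SE 0.62, adjusted p = 0.0324, edgeR). *Tsc22d3*, also a glucocorticoid target, fell from 758 ± 169 to 400 ± 104 CPM (-0.92, SE 0.24, adjusted p = 0.0421, edgeR). *Por*, which encodes the electron donor of the cytochrome P450 enzymes and is also a PAR-bZIP target, had a log2 fold change of -0.38 (SE 0.22, adjusted p = 0.255, edgeR), and *Alas1*, of haem synthesis, one of 0.09 (adjusted p = 0.739). *Tspan4* was higher in every KO-labelled library without passing the test (0.63, SE 0.22, adjusted p = 0.0913). With the GC trend removed, *Tsc22d3* (adjusted p = 0.0659) and *Ciart* (adjusted p = 0.061, edgeR) no longer passed. With 1 library left out, *Noct* and *Usp2* passed in 4 of the 6 fits, *Pdxk* in 1 and *Tsc22d3* in 0.

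**Figure D4:**
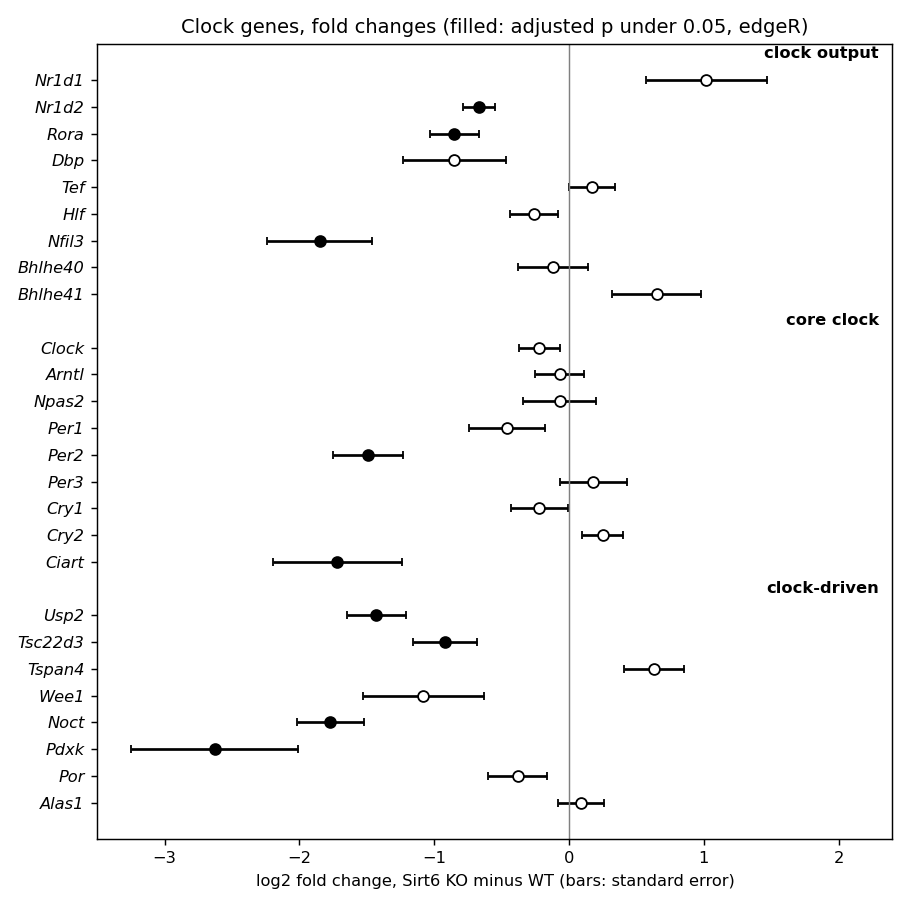
Log2 fold changes (x axis; point, edgeR estimate; bar, standard error) of the 9 clock output genes, 9 core clock genes and 8 clock-driven genes, with filled points for an adjusted p under 0.05. All filled points lie to the left, at -2.63 to -0.67, and the only clock output genes among them are *Nr1d2*, *Rora* and *Nfil3*.

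The calls of the 3 members that fell depended on single libraries, as did the calls over all genes. None of the 9 genes passed the test without WT library 2, without KO-labelled library 1 or without KO-labelled library 3, whereas without WT library 3 the same 3 fell and *Nr1d1* and *Bhlhe41* rose. The directions of *Nfil3*, *Nr1d2*, *Rora*, *Nr1d1*, *Dbp*, *Tef*, *Hlf* and *Bhlhe41* were the same under all 16 alternatives.

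**Figure D5:**
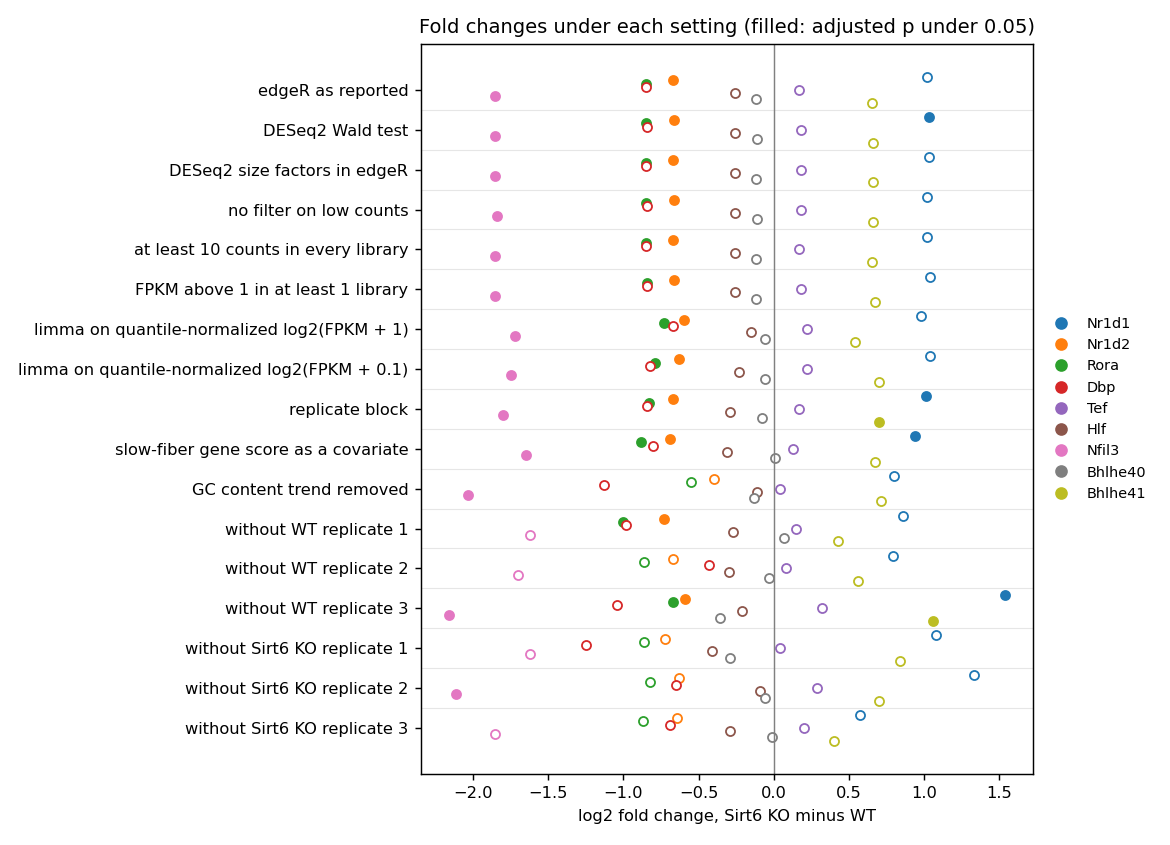
Log2 fold change of each of the 9 genes (x axis) in the reported fit and under each of the 16 alternatives (y axis), with filled points for an adjusted p under 0.05. *Nfil3* lies between -2.16 and -1.62 throughout, and only *Bhlhe40* crosses 0.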

How the data were processed

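RNA from GAS muscle was sequenced in 6 libraries, with paired-end reads on a HiSeq instrument. Per the labels, mm10, HISAT2 2.1.0, Bowtie2 2.3.4.1 and StringTie 2.1.3b were used; the reporting summary names another aligner, STAR. The labels name a stranded library kit and the methods another TruSeq kit, and whether counting used strand is not given in the sources used here. The authors deposited unnormalized read counts per gene, FPKM scaled to length and library size, and TPM scaled to length and to nearly the same sum in every library. Groups and replicate numbers came from the sample titles, and the sample descriptions carry numbers other than these replicate numbers. The study describes its WT mice as littermates of the KO mice. The sources used here do not say which of these libraries share a litter. The p-values measure the spread between these libraries.

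Counts were tested in R 4.3.3 with edgeR 4.0.16 (filterByExpr, TMM, quasi-likelihood fit by group, Benjamini-Hochberg adjustment over 13801 genes, threshold 0.05). The design was set out as an edgeR fit because the file holds counts; the study's methods give quantile-normalized log2(FPKM + 1) and a fold change, and a figure legend names a DESeq2 Wald test, which is here an alternative. Levels are normalized CPM, in which 1 count was worth 0.0165 to 0.0212, and standard errors derive from the test. Of the 9 genes, *Dbp*, *Hlf* and *Bhlhe41* had the fewest counts, between 253 and 2264 per library. The standard error did not follow the counts alone. It was 0.18 both for *Hlf* and for *Rora*, which had 5983 to 13640 counts. Ratios used TPM and SciPy 1.17.1. Scripts were tested on simulated counts with 200 genes changed by 2 log2 units. There, 5.03% of edgeR's calls and 22.7% of DESeq2's calls were false. The simulated counts had no GC trend and no split by slow fiber markers, so these rates need not hold for the real libraries.

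The alternatives were DESeq2 1.42.0, its size factors in edgeR, 3 other filters on low values, limma 3.58.1 on the study's log2 FPKM scale with a pseudocount of 1 or of 0.1, a block for the replicate number, a slow fiber score as a covariate, a lowess GC trend (span 0.3; GENCODE M21, 99.4% of genes tested) and each library left out. GENCODE M21 and RefSeq GRCm38.p6 share the build of mm10.

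The genes named are the 9 members, *Sirt6*, genes of the core clock, ROR, clock-driven, corepressor, and kinase and ligase lists, marker genes and overlapping genes. Also named are the 2 genes of most like pattern per member among those with a range of at least 1 log2 unit. Results for some listed genes are not reported here. The members, lists and tests were chosen with earlier results of these data known.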

Additional observations from a re-analysis of the deposited data

How the results depend on the processing

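With 16 alternatives for each of the 9 members, 122 fold changes kept their direction and their side of the threshold, 14 lost the call, 6 gained it and 2 turned. Both that turned were of *Bhlhe40* (0.01 with the slow fiber score, and from -0.36 to 0.07 over the fits without 1 library, the latter without WT library 1). Only the 3 members that fell had a call to lose. Of the 16 alternatives, 11 called *Nr1d2*, 11 called *Rora* and 12 called *Nfil3*. All 63 alternative values of the ratios moved by less than 1 SD, but they came only from FPKM and from leaving out 1 library. FPKM gives the same ratios as TPM by construction. The GC trend and the slow fiber score were not applied to the ratios. The SDs were also wide: for *Dbp* to *Nfil3* the SD was 0.88, and the log2 difference of 0.96 was 0.35 without KO-labelled library 1.

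Over all genes, 1158 were called lower and 1084 higher. With the GC trend removed the counts were 488 and 474, and the members called lower numbered 1 (*Nfil3*), since *Nr1d2* and *Rora* lost the call. With the slow fiber score as a covariate, 2092 and 2056 genes were called, and 1 member, *Nr1d1*, was called higher. DESeq2 called 1732 lower and 1665 higher, with 1 member higher (*Nr1d1*). With single libraries left out, the counts over all genes ran from 2 to 2219 lower and from 6 to 2363 higher, and those of members from 0 to 3 lower and from 0 to 2 higher. The low ends over all genes were reached without KO-labelled library 1 (2 and 6) and KO-labelled library 3 (5 and 8), and the high ends without WT library 3. The cause was not tested.

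With the replicate number as a block, the 3 members that fell were called again and 2 more were called higher, *Nr1d1* (1.01, adjusted p = 0.0249) and *Bhlhe41* (0.70, adjusted p = 0.0298, edgeR). The numbers are not known to pair the animals: deviations of same-numbered libraries from their group means correlated at -0.106, 0.260 and 0.161 over genes, and 3 of the 6 libraries correlated best with their own number.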

Other observations

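The partners of the clock output factors were also counted by list. Of 6 genes of the corepressor complex that REV-ERB receptors recruit, 1 rose and 5 did not pass the test, where 7.85% of all genes tested rose and 16.2% passed in either direction, so that the count is near the background. *Hdac3*, which encodes its histone deacetylase, was at 61.4, 64.4 and 81.9 CPM in WT libraries 1, 2 and 3 and at 143, 100 and 113 in the KO-labelled libraries (log2 fold change 0.78, SE 0.17, adjusted p = 0.029, edgeR), and it stayed past the threshold with the GC trend removed (0.85, adjusted p = 0.0393) but passed in 2 of the 6 fits without 1 library. *Ncor1*, the corepressor that bridges it to the receptors, was at 132 ± 3.55 and 124 ± 8.13 CPM (SD, n = 3 each, log2 fold change -0.09, SE 0.10, adjusted p = 0.553).

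Of 8 tested genes for kinases and ubiquitin ligases that act on clock proteins, 1 rose and 7 did not pass, a count again near the background of 7.85% higher and 16.2% in either direction. *Csnk1d*, which encodes casein kinase 1 delta, a kinase of the PER proteins, was at 52.1 ± 5.92 CPM in WT and 70.0 ± 4.11 in the KO-labelled libraries (0.43, SE 0.12, adjusted p = 0.047, edgeR), and the call was lost with the GC trend removed (0.26, adjusted p = 0.186) and in 5 of the 6 fits without 1 library. *Fbxl21* had between 0 and 13 counts per library and was not tested.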
